A study of Schizosaccharomyces pombe with 24 samples.

Results

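The genes examined were 10 genes of arginine and lysine synthesis in the fission yeast Schizosaccharomyces pombe, chosen by name: arg1 (SPCC777.09c), arg4 (SPBC215.08c), arg5 (SPBC56F2.09c), arg7 (SPBC1773.14), arg11 (SPAC4G9.09c), arg12 (SPBC428.05c), lys1 (SPAP7G5.04c), lys3 (SPAC227.18), lys4 (SPBC1105.02c) and lys9 (SPBC3B8.03). They are 10 of the 6878 counted features, and all 10 passed the filter on low counts. What was counted is small RNA of 20 to 30 nucleotides, purified from a gel, so the values are amounts of small RNA over a gene and not of its messenger RNA. The 4 strain labels are wt (975 h+), ago1D (975 h+ ago1D::NatMX6), clr4D (975 h+ clr4D::NatMX6) and dcr1D (975 h+ dcr1D::NatMX6), where D is a deletion, ago1 encodes Argonaute, dcr1 Dicer and clr4 the methyltransferase of histone H3 in heterochromatin. Every culture grew in minimal medium (EMM) that held lysine, histidine, leucine, adenine and uracil but no added arginine, and was then washed into EMM lacking a nitrogen source. Each strain has 1 library at 0, 1, 2, 4, 10 and 24 h without nitrogen, 24 in all, so no strain and time has a replicate. The study asks how small RNAs and the heterochromatin machinery act in cells made quiescent by nitrogen loss.

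Arginine is made from glutamate through ornithine. Arg11, which carries the kinase and the reductase for acetylglutamate, and the aminotransferase Arg1 lead to ornithine. Arg5 and Arg4, the subunits of the arginine-specific carbamoyl-phosphate synthase, supply carbamoyl phosphate. Arg12, argininosuccinate synthase, joins citrulline to aspartate, and the lyase Arg7 releases arginine. Fungi make lysine by the aminoadipate route, which starts with the homocitrate synthase Lys4. Lys1 then reduces aminoadipate, Lys9 forms saccharopine, and Lys3 splits saccharopine to give lysine. Both routes take up nitrogen, and in yeasts their genes are known to be controlled by the supply of amino acids.

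Library size and make-up varied. Gene counts per library ran from 117245 to 2121235, and the 10 genes had 238 (arg7) to 6726 (arg4) counts over all 24 libraries. In the libraries labelled wt, clr4D and dcr1D, mitochondrial genes took 35.3% to 46.5% of gene counts at 0 h and 5.29% to 7.89% at 24 h, and nuclear coding genes 30.2% to 40.6% and 63.4% to 72.9%. The share of reads in a file that fell in genes was 13.1%, 25.2% and 25.2% at 0 h in wt, clr4D and dcr1D, and 1.27% to 13.5% later. The share set aside for low alignment quality was 79.4%, 67.3% and 67.5% at 0 h and 84.1% to 97.0% later. The 0 h libraries, the base of every time test, thus stood apart in this too. The part of the shift in make-up in the results below was not tested beyond other scalings, and that of the reads set aside was not tested. Small RNA of ago1 was at 0 to 17.3 counts per 1000000 (CPM) in the libraries labelled ago1D and at 26.8 to 114 CPM in the other 18. Small RNA of clr4 was at 81.6 to 203 CPM in the libraries labelled clr4D, above the 20.5 to 75.4 CPM of the others, and that of dcr1 at 62.2 to 113 CPM in the libraries labelled dcr1D against 46.9 to 120.5 CPM. Those 2 deletions are thus not visible in the counts of their own genes. How much of each gene was deleted is not stated, so strains are named below as labelled.

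The early ago1D libraries went against their time labels. Over the 4210 genes other than the 10, the library labelled ago1D 0 h was most like the 1 h libraries of the other strains (r = 0.60, against -0.16 with 0 h). The one labelled 1 h was most like 2 h (0.42, against 0.31), and the one labelled 2 h most like 0 h (0.83, against -0.40). These r are given as descriptions across genes, which are not independent replicates. Those labelled 4, 10 and 24 h were most like their own time. The summed level of 9 nitrogen-starvation genes (ste11, mei2, isp6, isp5, amt1, amt2, amt3, fnx1 and dak2) was 535 to 704 CPM at 0 h and 3522 to 6622 CPM from 1 h on in the other 3 strains, but 4304 CPM in the library labelled ago1D 0 h and 884 CPM in that labelled 2 h. Times were therefore compared over the 18 libraries labelled wt, clr4D and dcr1D (3 per time), and the values with ago1D are given beside them.

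Small RNA over 3 of the 4 lysine genes was lower by 1 h without nitrogen, while of the 6 arginine genes 3 were lower from 2 h on and 2 were higher by 1 h. The genes lys1, lys3 and lys4 were lower than at 0 h at all 5 later times and lys9 at 10 h alone. The genes arg1, arg4 and arg5 were lower from 2 h on, arg7 was higher at all 5 times, arg12 was higher at 1 and 2 h, and arg11 passed at no single time. A gene passed at an adjusted p below 0.05 in edgeR's quasi-likelihood test with terms for strain and time, adjusted by Benjamini-Hochberg over the 3928 genes tested. Values below are CPM after TMM scaling, given in the order wt, clr4D and dcr1D, and differences are log2 fold changes against 0 h with their standard error (SE). In whole cultures, fewer cells holding an RNA and less of it per cell cannot be told apart.

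**Figure D1:**
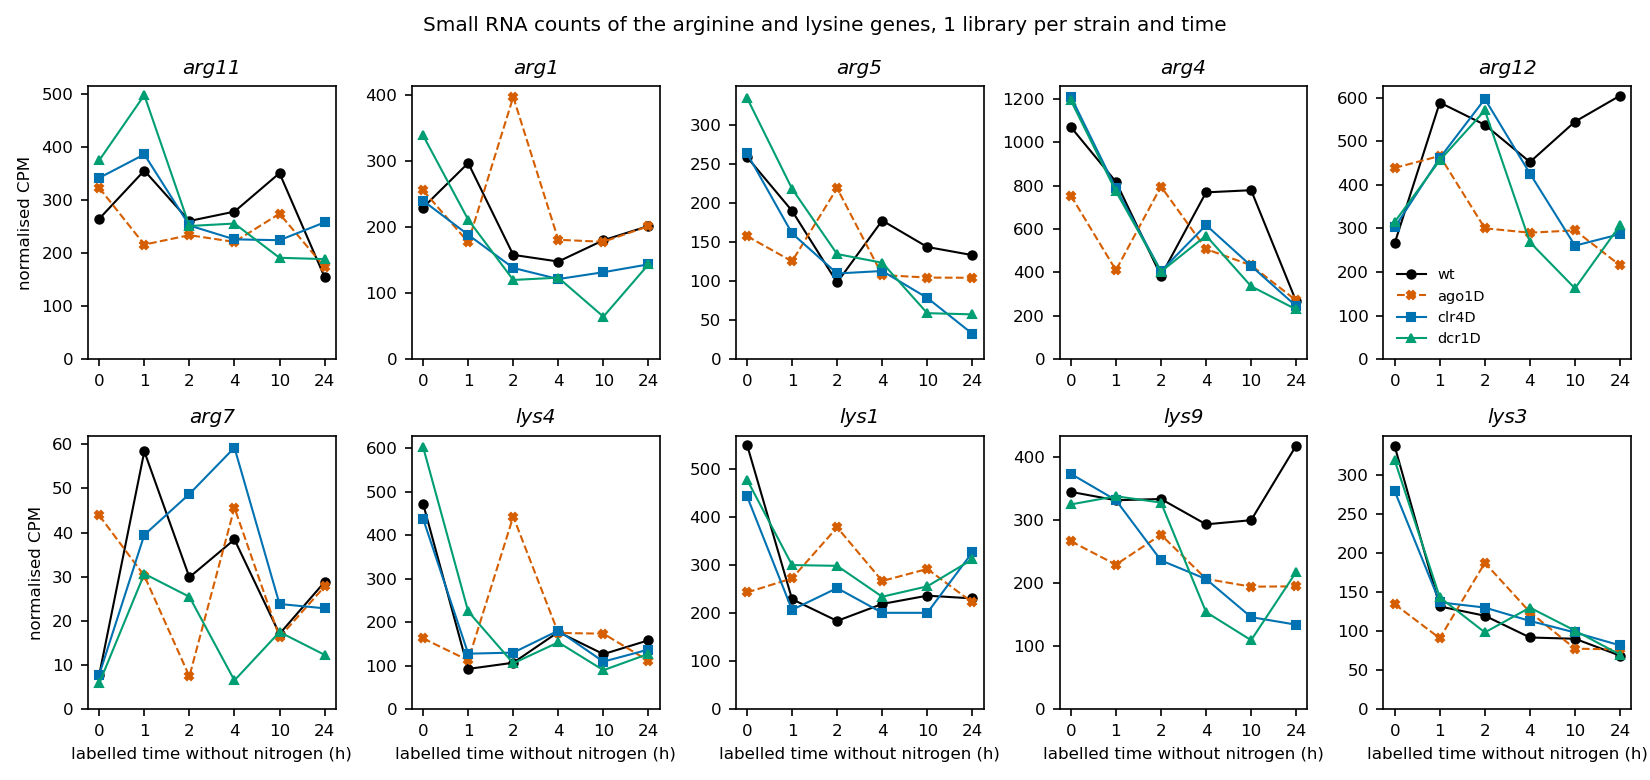
Normalised CPM (y axis, from 0) of each of the 10 genes against labelled time without nitrogen in h (x axis, times evenly spaced), 1 library per point, with lines joining the libraries of a strain label and ago1D dashed. lys3 and lys4 are high at 0 h in wt, clr4D and dcr1D and low from 1 h on, and in ago1D the library labelled 2 h is the highest for both (187 and 443 CPM).

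Lys4 catalyses the first step of lysine synthesis, and its gene had the lowest log2 difference of the 10 at 1 h. lys4 stood at 473, 438 and 603 CPM at 0 h and at 92.5, 128 and 225 CPM at 1 h. It was at 107, 130.0 and 105 CPM at 2 h, 177, 181 and 154 CPM at 4 h, 127, 109 and 89.5 CPM at 10 h and 158, 137 and 127 CPM at 24 h. No later library of the 3 strains reached the lowest 0 h value of 438 CPM. The difference was -1.73 (SE 0.25, adjusted p = 1e-05) at 1 h, or 0.302 of the 0 h level, and lay between -1.52 and -2.18 at the other times.

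For lys3, whose product makes lysine itself, the 0 h libraries held 336, 279 and 318 CPM and the 1 h libraries 131, 137 and 143 CPM. It held 91.7, 113 and 129.9 CPM at 4 h and 68.4, 81.6 and 69.7 CPM at 24 h. The groups did not overlap with 0 h at any time, and the 3 strains lay close together. The difference was -1.16 (SE 0.20, adjusted p = 8.65e-05) at 1 h and -2.02 (SE 0.21, adjusted p = 2.69e-07) at 24 h.

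lys1, the aminoadipate reductase gene, started at 550.4, 443 and 478 CPM and held 229, 207 and 299.8 CPM at 1 h. At 10 h it held 236, 200.3 and 255 CPM and at 24 h 230.4, 326 and 312 CPM. All 15 later libraries were below the lowest at 0 h. The log2 difference was -0.99 (SE 0.21, adjusted p = 0.000718) at 1 h, then -0.97, -1.13 and -1.04, and -0.69 (SE 0.21, adjusted p = 0.00975) at 24 h. The 24 h call was lost in 3 of 8 other settings (without wt, without dcr1D and with ago1D as labelled), and its sign turned in another.

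lys9, the gene of the saccharopine-forming step, passed at 1 time only. Its 0 h values of 344, 373 and 324 CPM were followed by 331, 331 and 337 CPM at 1 h, so the groups overlapped, with a difference of -0.02 (SE 0.27, adjusted p = 0.965). By 10 h the values had spread to 299, 146 and 109 CPM, and by 24 h to 418, 134 and 217 CPM. The libraries labelled wt stayed near or above their 0 h level and those labelled clr4D and dcr1D lay below it. Over the 3 strains lys9 was lower at 10 h, with a difference of -0.97 (SE 0.27, adjusted p = 0.00559), a call lost in 3 of 8 other settings, among them without clr4D (-0.88) and without dcr1D (-0.74). The 4 h difference of -0.68 had an adjusted p of 0.0647 in edgeR's test and passed in 3 of 8.

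The gene pair for carbamoyl phosphate passed as lower from 2 h on. arg4, with the most counts of the 10, stood at 1069.7, 1209.8 and 1193 CPM at 0 h, 818, 787 and 773 CPM at 1 h and 384, 406 and 404 CPM at 2 h. It then stood at 769, 618 and 569 CPM at 4 h, 779, 430.1 and 336 CPM at 10 h and 266, 245 and 229.6 CPM at 24 h. Every later library was below every 0 h library, and the 4 h libraries were again all above the 2 h ones. The differences were -0.53 (SE 0.22, adjusted p = 0.0731) at 1 h, -1.50 (SE 0.23, adjusted p = 2.34e-05) at 2 h, -0.80 (SE 0.22, adjusted p = 0.00887) at 4 h and -2.18 (SE 0.24, adjusted p = 4.02e-07) at 24 h. The 4 h call was lost in 4 of 8 other settings, among them without clr4D (-0.82) and without dcr1D (-0.69).

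arg5, the partner subunit, started at 259, 263 and 334 CPM. It held 189.8, 161 and 218 CPM at 1 h, 98.2, 109.7 and 135 CPM at 2 h, 144, 78.5 and 58.9 CPM at 10 h and 133, 32.6 and 57.4 CPM at 24 h. At 24 h the library labelled wt lay above the other 2, and all 3 lay below every 0 h library. The log2 difference was -0.57 (SE 0.28, adjusted p = 0.126) at 1 h, -1.28 (SE 0.30, adjusted p = 0.00196) at 2 h, -1.04 (SE 0.29, adjusted p = 0.00771) at 4 h and -1.97 (SE 0.32, adjusted p = 4.65e-05) at 24 h. The 4 h call was lost in 4 of 8 other settings, among them without clr4D (-1.06) and without dcr1D (-0.84), and the 2 h call in 2 of 8.

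arg1 held 229, 239.9 and 339 CPM at 0 h and 297, 188 and 211 CPM at 1 h, which overlap. At 2 h it held 158, 138 and 120.0 CPM, at 10 h 180.1, 132 and 64.4 CPM and at 24 h 202, 144 and 143 CPM. The 2 h and later groups lay below the 0 h group, and the library labelled dcr1D at 10 h was the lowest of all 24. The difference was -0.96 (SE 0.27, adjusted p = 0.00793) at 2 h and -0.72 (SE 0.27, adjusted p = 0.0354) at 24 h. The 2 h call was lost in 3 of 8 other settings, among them without dcr1D (-0.65). The 24 h call was lost in 4 of 8, among them without clr4D (-0.76) and without dcr1D (-0.39), and its sign turned in another. Without dcr1D the 4 and 10 h calls of arg1 (-0.77 and -0.56) were lost too.

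The genes of the last steps of arginine synthesis were the only ones of the 10 that rose in this test. arg12 went from 266, 302 and 315 CPM at 0 h to 589, 462 and 456 CPM at 1 h and 538, 597 and 571 CPM at 2 h, with no overlap. At 10 h the libraries had separated to 545, 261 and 163 CPM and at 24 h to 605, 287 and 307 CPM, with the one labelled wt highest and the rest around or below 0 h. The difference was 0.75 (SE 0.28, adjusted p = 0.0417) at 1 h and 0.98 (SE 0.28, adjusted p = 0.00813) at 2 h. The 1 h call was lost in 7 of 8 other settings, in which the difference was 0.52 to 0.89, and the 2 h call in 2 of 8.

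arg7 rests on few reads, 3 to 25 counts per library. Its CPM were 7.78, 7.82 and 5.87 at 0 h and 58.4, 39.5 and 30.7 at 1 h, 38.4, 59.3 and 6.50 at 4 h and 28.8, 22.8 and 12.3 at 24 h. All 3 libraries were above the 0 h ones at 1, 2, 10 and 24 h, while at 4 h the library labelled dcr1D was not. The difference was 2.43 (SE 0.48, adjusted p = 0.000385) at 1 h and 1.49 (SE 0.55, adjusted p = 0.035) at 24 h. With clr4D left out, arg7 failed the filter on low counts and could not be tested. Of the 7 other settings that could test it, 4 lost the 24 h call (no filter, DESeq2, without wt and with ago1D as labelled) and 3 the 10 h call (DESeq2, without dcr1D and with ago1D as labelled). With ago1D as labelled the calls at 1, 2 and 4 h were lost as well.

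arg11, which encodes the enzymes of the middle steps to ornithine, varied least against 0 h. It stood at 264, 342 and 375 CPM at 0 h, 355, 386 and 497 CPM at 1 h and 155, 258 and 189 CPM at 24 h. The 24 h libraries were all below the 0 h ones, with a difference of -0.63 (SE 0.25, adjusted p = 0.0503) that just missed the threshold. It passed in 4 of 8 other settings and was 0.52 with total-count scaling. The differences at the other times ran from -0.32 to 0.36.

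**Figure D2:**
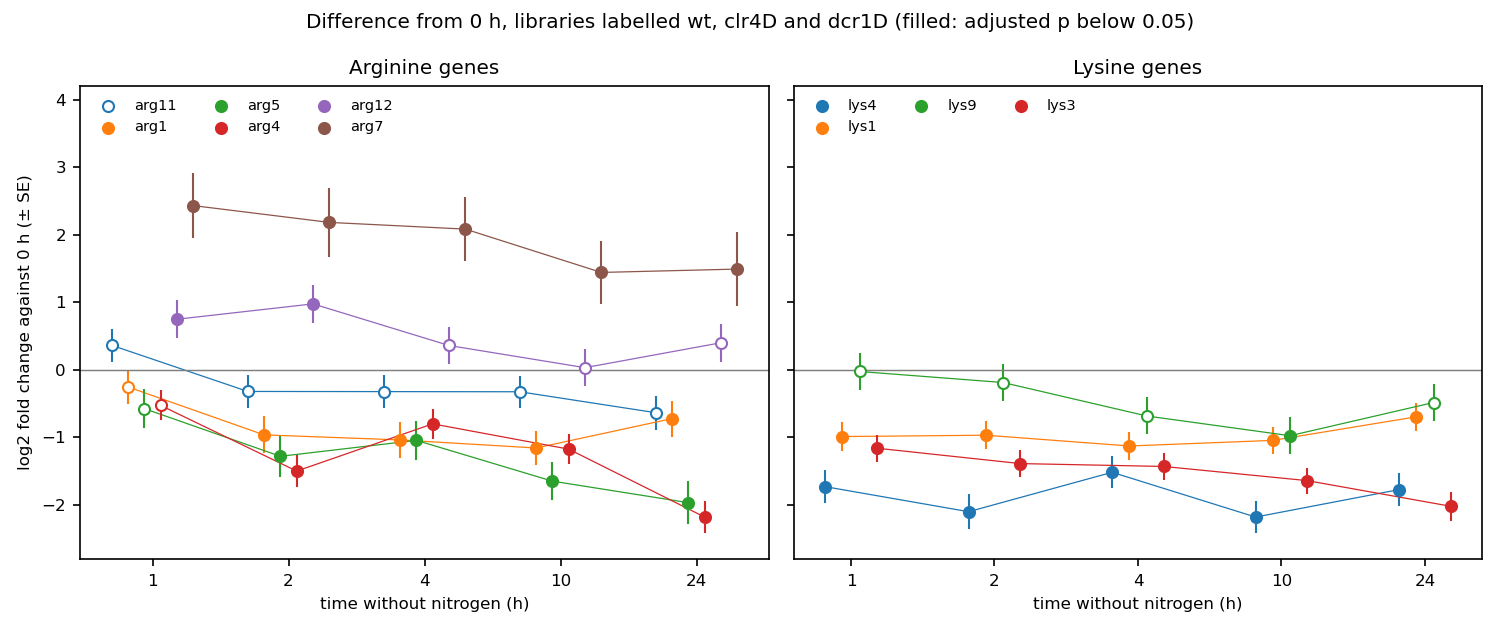
Log2 fold change against 0 h (y axis) with its SE (bars) at each later time (x axis, in h) for the arginine genes (left) and the lysine genes (right), from the 18 libraries labelled wt, clr4D and dcr1D. Filled points passed the test at an adjusted p below 0.05. lys1, lys3 and lys4 are lower from 1 h on, arg1, arg4 and arg5 from 2 h on, and arg7 is the highest at every time (2.43 at 1 h).

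Across the 10 genes, 3 were lower and 2 higher at 1 h, where 16.6% of all genes tested were lower and 16.9% higher. At 2 h 6 were lower and 2 higher, beside 17.8% and 18.8% of all genes. At 4 h 6 were lower and 1 higher, beside 14.8% and 14.9%. The counts were 7 lower and 1 higher at 10 h, beside 20.9% and 23.2%, and 6 lower and 1 higher at 24 h, beside 17.2% and 22.4%. The share of lower genes was thus above that of all genes at each time from 1 h on, and the share of higher genes was near it or below it. These shares are a description, since the 10 were chosen with earlier results of these data known. The median difference of the 10 was -0.39, -0.96, -0.92, -1.10 and -0.71 at the 5 times, beside 0.04, 0.03, 0.05, 0.08 and 0.06 over all genes. A test of any difference over the 6 times passed for all 10 genes, where 57.9% of all genes passed. With clr4D left out, arg7 failed the filter on low counts and was not tested. Of the rest, 3 genes were lower and 0 higher at 1 h and 4 lower and 0 higher at 4 h. With dcr1D left out, 3 were lower and 1 higher at 4 h and 5 lower and 0 higher at 10 h. The test over all times then passed for 6 genes in either case. Shares of all genes were not counted for these smaller sets of libraries.

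The calls depend in part on how libraries were scaled. With total counts in place of TMM, the median of all genes tested moved up by 0.12, 0.61, 0.46, 0.85 and 1.13 at 1, 2, 4, 10 and 24 h, to 1.19 at 24 h. The share of all genes passing under that scaling was not counted. The 10 genes then split as 2 higher and 3 lower at 1, 2, 4 and 10 h and as 3 higher and 4 lower at 24 h. The higher genes were arg7 and arg12 at each time, with lys9 at 24 h, and lys3 and lys4 were among the lower ones at each time. At 24 h the signs of arg1 (0.44), arg11 (0.52), lys1 (0.41) and lys9 (0.65, adjusted p = 0.0292 in edgeR's test) turned positive under that scaling. Relative to the median of all genes they were -0.75, -0.67, -0.78 and -0.54. The adjusted p of lys3 and lys4 ran from 5.28e-05 to 0.0373. With TMM factors from nuclear coding genes alone, the median of the 3635 genes tested both ways went down by 0.03 to 0.09.

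In the libraries labelled ago1D the same genes moved in an order unlike their labels. lys4 was at 163 CPM in the library labelled 0 h, 112 CPM at 1 h and 443 CPM at 2 h, then 175, 174 and 111 CPM. For lys3 the values were 134, 90.7, 187, 124, 77.3 and 76.4 CPM, and for arg4 754, 410.3, 795, 508, 433 and 271 CPM. arg7 was at 43.9 CPM in the library labelled 0 h and at 7.42 CPM in that labelled 2 h. The library labelled 2 h, which resembled 0 h over other genes, was thus the highest of the 6 for lys3, lys4 and arg4 and the lowest for arg7. With all 4 strains as labelled, 3, 0, 4, 7 and 5 of the 10 genes passed at 1, 2, 4, 10 and 24 h in edgeR's test. Without ago1D 5, 8, 7, 8 and 7 passed. At 2 h 5 of the 10 had an unadjusted p below 0.05 with ago1D as labelled. The share of all genes in that fit was not counted at either threshold, so a loss across all genes cannot be told from one in the 10.

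Between strains no gene of the 10 passed in any deletion label against wt, with libraries matched by labelled time. For ago1D the match at 0, 1 and 2 h is doubtful, since those labels went against levels over other genes. Passing genes made up 1.58% of all genes for clr4D, 9.47% for dcr1D and 4.31% for ago1D. An unadjusted p below 0.05 in edgeR's test was found for 2, 3 and 2 of the 10. The share of all genes at that looser threshold was not counted. DESeq2 called 0 of the 10 in each. arg4, arg5, arg12 and lys9 were below wt in all 3. The lys9 difference was -0.56 (SE 0.20, adjusted p = 0.186) in clr4D, -0.56 (SE 0.20, adjusted p = 0.0791) in dcr1D and -0.58 (SE 0.22, adjusted p = 0.157) in ago1D. That of arg12 was -0.38 (SE 0.20, adjusted p = 0.38) in clr4D, -0.57 (SE 0.20, adjusted p = 0.0744) in dcr1D and -0.58 (SE 0.25, adjusted p = 0.213) in ago1D. That of arg5 was -0.52 (SE 0.22, adjusted p = 0.288) in clr4D, -0.28 (SE 0.22, adjusted p = 0.433) in dcr1D and -0.28 (SE 0.28, adjusted p = 0.654) in ago1D. The 3 comparisons share the wt libraries. The other 7 genes differed by -0.75 to 0.29, with SE from 0.15 to 0.45, and differences of that size were not resolved here.

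Leaving out the 0 h libraries changed the strain calls. Without them arg12 (-0.78, adjusted p = 0.0298) and arg1 (-0.64, adjusted p = 0.0439) passed as lower in dcr1D in edgeR's test. In ago1D arg12 (-0.84, adjusted p = 0.0428) passed as lower in edgeR's test, with labelled times that are doubted. The library labelled ago1D 2 h, which resembled 0 h, held 300 CPM of arg12, against 538, 597 and 571 CPM in wt, clr4D and dcr1D. Time and strain cannot be told apart in that call. With total-count scaling arg12 (-0.67) and lys9 (-0.66) passed as lower in dcr1D. Without the 3 doubted ago1D libraries no gene of the 10 passed in ago1D.

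**Figure D3:**
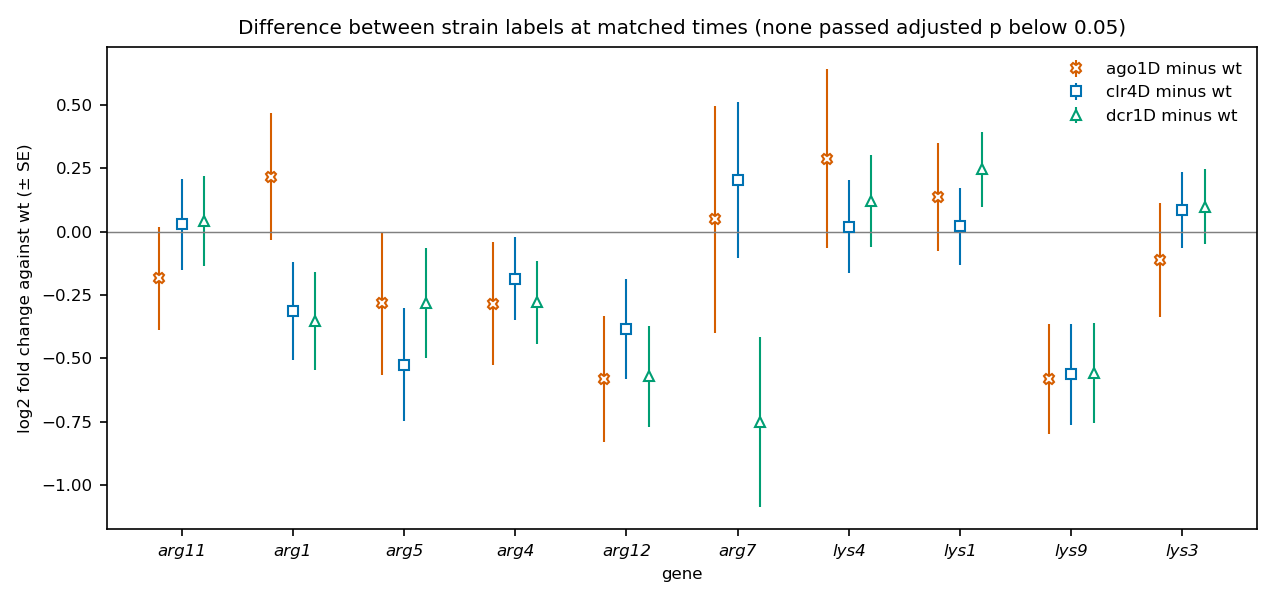
Log2 fold change of each deletion label against wt (y axis) with its SE (bars) for the 10 genes (x axis). Each strain has 6 times matched by label, of which 0, 1 and 2 h are doubted in ago1D. lys9 (-0.56 in clr4D) and arg12 lie below 0 in all 3 labels, as do arg4 and arg5; no point passed an adjusted p below 0.05.

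At 10 and 24 h the 4 strain labels lay apart for arg5, arg12 and lys9, a set chosen after values were seen. arg12 at 10 h was at 545 CPM in wt and at 261, 163 and 296 CPM in clr4D, dcr1D and ago1D, and at 24 h at 605 CPM against 287, 307 and 215.3 CPM. lys9 at 24 h was at 418 CPM in wt and at 134, 217 and 194 CPM, and at 10 h at 299 CPM against 146, 109 and 194 CPM. arg5 at 10 h was at 144 CPM in wt and at 78.5, 58.9 and 104 CPM, and at 24 h at 133 CPM against 32.6, 57.4 and 104 CPM. In these genes and at both times the wt library was the highest of the 4, with 1 library each. The arg5 values at 24 h rest on 37 counts in wt and 10, 14 and 15 in clr4D, dcr1D and ago1D. For arg1 the wt library was also the highest at both times, but close to ago1D (180.1 against 177.7 CPM and 201.6 against 201.4 CPM). Comparing 10 and 24 h with 0 to 4 h within a strain, 0 of the 10 passed in wt, ago1D, clr4D or dcr1D in edgeR's test, where 0.118%, 0%, 2.32% and 2.51% of all 4220 genes passed. The counts with an unadjusted p below 0.05 were 0, 0, 3 and 4, and the share of all genes at that threshold was not counted. DESeq2 called arg5 as lower in clr4D (-1.48, adjusted p = 0.0479) and dcr1D (-1.79, adjusted p = 0.00924).

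The difference between that late change and the one in wt was tested directly. For arg12 it was -1.03 (SE 0.56, adjusted p = 0.777) in clr4D and -1.11 (SE 0.56, adjusted p = 0.906) in dcr1D, in edgeR's test. The lys9 value was -1.17 (SE 0.50) in clr4D, with an adjusted p of 0.693 and an unadjusted p of 0.0276. For arg5 it was -1.10 (SE 0.66, adjusted p = 0.787) in clr4D and -1.41 (SE 0.66) in dcr1D, with an adjusted p of 0.845 and an unadjusted p of 0.0453. No gene of the 10 passed in ago1D, clr4D or dcr1D, and 0% of all genes passed in each of the 3. Of the 10 genes, 0, 1 and 1 had an unadjusted p below 0.05, a threshold at which all genes were not counted, and DESeq2 called 0.

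That test does not match libraries by time, so a fit with a time term was added after the data were seen. Over all 24 libraries it called 0 of the 10 genes in each deletion, where 0%, 0% and 0.166% of all genes passed in ago1D, clr4D and dcr1D. An unadjusted p below 0.05, not counted over all genes, was found for 0, 2 and 3 of the 10 in edgeR's test. Over the 18 libraries without ago1D, arg5 (-1.38, SE 0.36, adjusted p = 0.0233) and arg12 (-1.16, SE 0.30, adjusted p = 0.0233) passed as lower in dcr1D in edgeR's test, where 5.91% of all genes passed. In clr4D none of the 10 passed, where 3.54% of all genes did. The adjusted p there was 0.0624 for arg12 (-0.97), 0.0695 for lys9 (-1.01) and 0.118 for arg5 (-0.99). The late departure of arg5 and arg12 in dcr1D thus passed or not with the set of libraries and the time term.

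**Figure D4:**
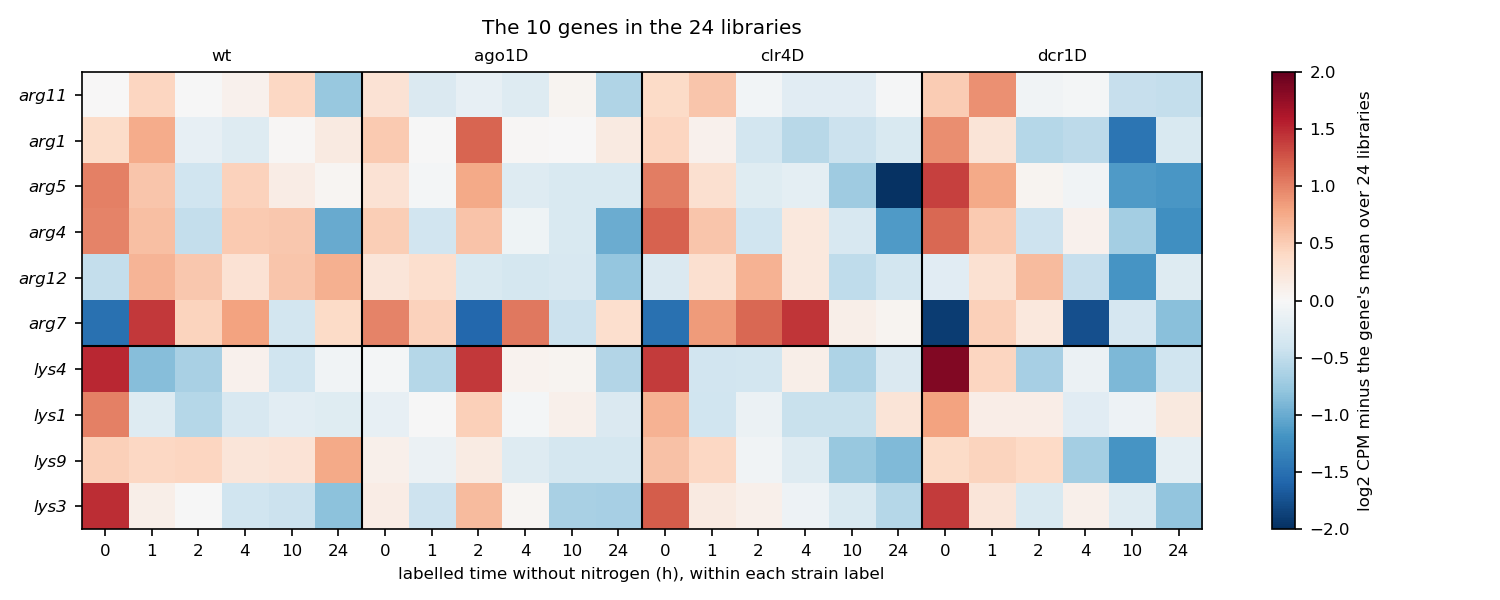
Log2 CPM of each of the 10 genes (rows) in each of the 24 libraries (columns, by strain label and then labelled time in h), less the gene's own mean over the libraries; red is above and blue below that mean. The 0 h columns of wt, clr4D and dcr1D are red for lys3, lys4, arg4 and arg5 and blue for arg7, and the ago1D column labelled 2 h has the same pattern.

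Over the 24 libraries the genes did not vary as 1 block. Pairs of lysine genes had a median Pearson r of 0.54 in log2 CPM, pairs of arginine genes 0.31 and mixed pairs 0.43, with a lowest value of -0.69. The 15 pairs among arg1, arg4, arg5, lys1, lys3 and lys4, a set chosen after values were seen, had a median of 0.68. The 5 other genes whose levels were most like the mean of the 10 were aat1 (an amino acid permease, r = 0.95), tda1 (threonine ammonia-lyase, 0.89), SPMIT.07 (0.88), SPMITTRNAGLN.01 (0.88) and SPMIT.05 (0.87). All r are descriptions over 24 libraries that share time courses and the change in make-up, and the last 3 of these genes are mitochondrial.

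The remaining lysine genes were lower too. lys2 (homoaconitate hydratase) and lys12 (homoisocitrate dehydrogenase), both of the 2 tested of a list of 3, were lower at all 5 times. lys12 reached -2.75 (SE 0.29, adjusted p = 2.39e-07) at 10 h and lys2 -1.96 (SE 0.22, adjusted p = 4.56e-07). With total-count scaling the 24 h calls of both were lost (lys12 -0.18 and lys2 -0.12). The lys2 calls at 1, 2 and 24 h were also lost with ago1D as labelled. Of the other arginine genes, arg3 (ornithine carbamoyltransferase) passed at no single time. The gene arg6 (acetylglutamate synthase) was lower at 24 h, with a difference of -0.87 (SE 0.30, adjusted p = 0.0259 in edgeR's test). Total-count scaling turned that difference to 0.25 (adjusted p = 0.537). The arg6 call was also lost in 3 other settings: DESeq2 (-0.89), without clr4D (-0.67) and without dcr1D (-0.90).

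The genes of arginine breakdown went in opposite directions. car1, an arginase gene, held 13.6, 10.4 and 16.8 CPM at 0 h and 48.7, 75.9 and 81.8 CPM at 1 h. It was higher at all 5 times, by 1.77 to 2.72, with 2.72 (SE 0.31, adjusted p = 4.57e-07) at 2 h. car2, the ornithine transaminase gene, held 317, 339 and 329 CPM at 0 h and 185, 112 and 119 CPM at 1 h. It was lower at all 5 times, with a difference of -2.19 (SE 0.23, adjusted p = 1.86e-07) at 24 h. aru1, another arginase gene, passed at none.

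Among the genes of amino acid starvation control (gcn1, gcn2, fil1, cpc2 and gcn5), fil1 was higher at all 5 times and cpc2 lower at 1, 2, 4 and 10 h. fil1, a GATA-type transcription factor gene, went from 603, 712 and 569 CPM at 0 h to 1489, 1227 and 1128 CPM at 1 h, a difference of 1.03 (SE 0.25, adjusted p = 0.00243). cpc2, the ribosomal RACK1 gene, went from 2143, 2289 and 3152 CPM to 623, 598 and 794 CPM, a difference of -1.88 (SE 0.24, adjusted p = 2.42e-06). gcn1, gcn2 and gcn5 passed at no time.

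Genes for histidine and for branched-chain amino acids were lower where they passed. Of the 7 histidine genes tested, 2, 3, 3, 5 and 3 were lower at the 5 times and 0 higher, with his1 (-1.03 to -1.41) and his4 lower at each. The his4 calls were lost in 4, 4, 3, 1 and 4 of 8 other settings, each time without dcr1D or with total-count scaling among them. Of the 7 branched-chain genes, 6, 6, 6, 7 and 5 were lower and 0 higher, among them ilv1, ilv3, leu1, leu3 and eca39 at every time. The leu1 calls at 1, 2, 4 and 24 h were lost in 2, 3, 2 and 3 of 8 other settings, and its sign turned in another at 24 h. Those of leu3 at 1, 2 and 24 h were lost in 2, 2 and 1. The median difference at 10 h was -1.34 for the 4 lysine genes, -0.81 for histidine, -1.66 for branched-chain and -0.74 for the 6 arginine genes, beside 0.08 over all genes. Leucine, histidine and lysine were in the growth medium and arginine was not; the part of the medium was not tested. Of the 9 nitrogen-starvation genes 8 were tested, and 5, 6, 5, 6 and 6 of them were higher and 0 lower.

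On the strand opposite lys9 lies the non-coding RNA gene SPNCRNA.1597, which covers all of lys9 in the RefSeq annotation of assembly ASM294v3. The gene prm1 likewise covers all of lys1 from the opposite strand. Both were looked at after values were seen, and whether counting kept the strands apart is not stated by the labels. SPNCRNA.1597 had 49.2, 49.7 and 79.3 counts per 100 lys9 counts at 0 h in wt, clr4D and dcr1D, and 17.6, 31.2 and 21.2 at 1 h. At 24 h it had 38.8 per 100 in wt but 202 in clr4D, 198 in dcr1D and 282 in ago1D. From 4 h on, the library labelled wt was the lowest of the 4 at each time.

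SPNCRNA.1597 itself was lower at 1 h, with a difference of -1.37 (SE 0.27, adjusted p = 0.00041), when lys9 differed by -0.02. It was above wt by 1.17 (SE 0.33, adjusted p = 0.0469) in ago1D and by 0.61 (SE 0.19, adjusted p = 0.044) in dcr1D, and differed by 0.51 (SE 0.19, adjusted p = 0.213) in clr4D. The dcr1D call was lost in 12 of 13 other settings and the ago1D call in 7 of 13. Leaving out 1 time gave adjusted p of 0.036 to 0.169 in dcr1D and 0.00337 to 0.195 in ago1D in edgeR's test. The dcr1D call was kept only with 10 h left out, and the ago1D call only with 0 h left out. The smallest differences were 0.40 without 24 h in dcr1D and 0.90 without 2 h in ago1D. Without the doubted ago1D libraries the difference was 0.89 (adjusted p = 0.0208).

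prm1, a conjugation gene, had 10.2, 12.9 and 12.98 counts per 100 lys1 counts at 0 h and 21.9, 74.0 and 44.7 at 24 h in wt, clr4D and dcr1D. Its level was 56.4, 57.4 and 62.0 CPM at 0 h and 50.4, 241 and 139 CPM at 24 h, so the library labelled wt did not rise. In wt the ratio rose as lys1 fell from 550.4 to 230.4 CPM. Over the 3 strains prm1 was higher at 24 h, by 1.26 (SE 0.38, adjusted p = 0.0124 in edgeR's test). That call was lost in 3 of 8 other settings, among them without clr4D (0.65). The differences from wt were 1.08 (SE 0.31, adjusted p = 0.0945) in clr4D and 0.97 (SE 0.31, adjusted p = 0.05) in dcr1D, and neither passed. In other settings prm1 passed in 3 of 13 for clr4D and in 4 of 13 for dcr1D, with adjusted p down to 0.0208 and 0.02. Other counted genes overlap arg4, arg12, lys3 and lys4 in part. Opposite arg4 (6726 counts), SPNCRNA.1658 (211 counts) covers 44.4% of it and SPNCRNA.1659 (65 counts) 55.8%. SPNCRNA.1360 (56 counts) lies opposite 13.75% of arg12. The gene psr1 lies opposite 11.04% of lys3, and mrpl16 shares 1.41% of lys4 on the same strand. The counts of these 4 members, and of lys1 and lys9, thus carry some uncertainty.

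**Figure D5:**
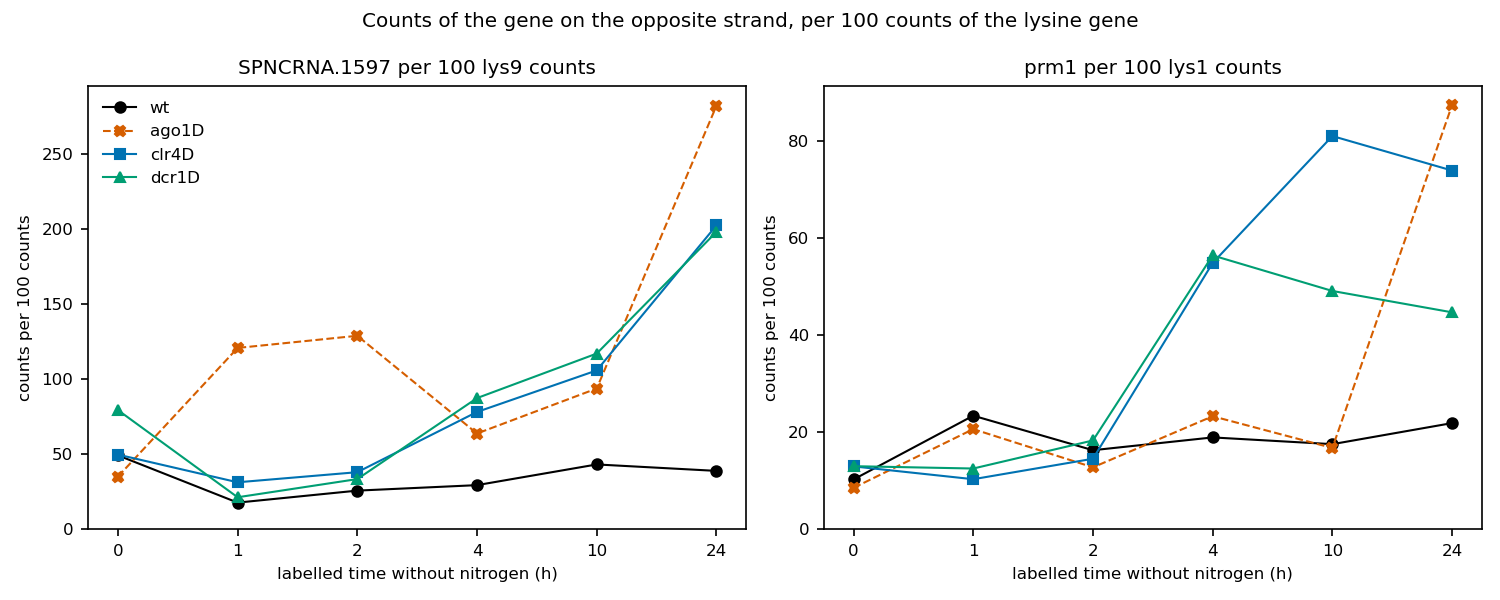
Counts of SPNCRNA.1597 per 100 counts of lys9 (left) and of prm1 per 100 counts of lys1 (right) on linear y axes from 0, against labelled time in h, 1 library per point. At 24 h the wt points are at 38.8 and 21.9, below those of the 3 deletion labels in both panels.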

How the data were processed

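Small RNA was sequenced in 24 libraries, 1 for each of 4 strains and 6 times. Per the submitters' processing notes, the authors used cutadapt, Bowtie2 2.1.0 with assembly ASM294v2 and HTSeq 0.6.1; the strand setting and the version of cutadapt are not given in the sources used here. The deposited files hold unnormalised read counts for 6878 transcripts, and 1.27% to 25.2% of the reads in a file fell in them. The 5 HTSeq summary lines entered neither library sizes nor tests. Names and opposite-strand neighbours came from RefSeq annotation of ASM294v3, which matched 6705 features, so no coordinates are given. The symbols his8 and his9 of the histidine list were not matched.

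Counts were tested with edgeR 4.0.16 in R 4.3.3 (TMM, low-count filter by strain with minimum count 10, quasi-likelihood F-test, p adjusted by Benjamini-Hochberg across every gene tested, threshold 0.05). Times and the clr4D and dcr1D contrasts used 18 libraries and 3928 genes, with terms for strain and time; ago1D against wt and the comparison of late with early times used 24 libraries and 4220 genes. The biological coefficient of variation was 0.207, 0.297 and 0.391 for 18 libraries, 24 libraries and late times. Strains stand in for replicates of a time and times for replicates of a strain. Separate cultures are not stated in the labels; the p-values then reflect only how these libraries scatter, which may be technical. DESeq2 1.42.0 was an alternative. Standard errors are the log2 fold change divided by the square root of F. The scripts were tested on simulated data.

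The members and the gene lists were chosen with earlier results of these data known, so no list test was made. All 10 members were tested in every contrast, and all are named for the times against 0 h. For strain labels and late times, values are given for some of them only. Of the other lists, mainly genes that passed at any time against 0 h are named, and not all of those. The 5 genes most alike were taken from those with a mean log2 CPM above 3 (prior count 2). Promoter sequences were not analysed here. Counting error alone is large at low counts, as for arg7.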

Additional observations from a re-analysis of the deposited data

Results flagged for a closer look

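Within each gene and labelled time, the 4 strain labels were checked for 1 library standing far from the other 3 by Dixon's criterion. Of 60 such groups 8 were picked out, 6 of them by a library labelled ago1D; chance picks out about 1 in 20. The causes were not tested.

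In the library labelled ago1D 2 h, arg1 was at 397 CPM (119.99 to 158 CPM in the other 3), arg4 at 795 CPM (384 to 406 CPM) and lys4 at 443 CPM (105 to 129.99 CPM). In the library labelled ago1D 1 h, arg4 was at 410.3 CPM (773 to 818 CPM in the others) and lys9 at 229 CPM (331 to 337 CPM). In the library labelled ago1D 0 h, arg7 was at 43.9 CPM (5.87 to 7.82 CPM). These are the 3 libraries whose time labels went against their levels over other genes.

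arg12 was at 589 CPM in the library labelled wt 1 h, where the others lay between 456 and 466 CPM. arg7 was at 23.8 CPM in the library labelled clr4D 10 h (16.3 to 17.5 CPM in the others), on 17 counts.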

How the results depend on the processing

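The 10 genes passing at 1, 2, 4, 10 and 24 h numbered 5, 8, 7, 8 and 7 in the reported test. With all 4 strains as labelled the counts at 1, 2 and 4 h were 3, 0 and 4, and 6 for any time. With total-count scaling they were 5 at 2 h and 5 at 10 h, and 2 genes passed in dcr1D against wt. For the late difference of dcr1D from wt, a time term without ago1D, chosen after seeing the data, called 2. DESeq2 called 1 gene for late against early in clr4D and 1 in dcr1D. Leaving out 1 strain in turn gave 3 to 6 genes at 1 h, 6 to 8 at 2 h, 4 to 9 at 4 h, 5 to 10 at 10 h, 5 to 7 at 24 h and 6 to 10 for any time. Leaving out 1 time in turn gave 0 to 2 genes in dcr1D, 0 to 1 in ago1D and 0 in clr4D against wt. The cause of these changes was not tested, and fewer libraries also change which genes pass the filter, as for arg7 without clr4D. Shares of all genes were not counted for these other settings, save the added time term, nor for unadjusted p.

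Among values that passed in the reported test or in the other setting, 17 turned in sign; a further 146 turned that passed in neither. With 1 strain left out in turn, arg12 at 10 h ranged from -0.61 (adjusted p = 0.0323, without wt) to 0.48, and arg3 at 24 h from -1.43 (adjusted p = 0.0113, without clr4D) to 0.80. The rest came from total-count scaling, which moves the median of all genes up. They were his3 (0.23) and his5 (0.043) at 10 h and, at 24 h, arg1 (0.44), lys1 (0.41), lys9 (0.65), arg6 (0.25), gcn2 (0.73), cpc2 (1.01), his1 (0.088), his2 (0.29), his4 (0.42), his5 (1.02), his7 (0.99), ilv5 (0.62) and leu1 (0.22). Over 296 gene results, 2137 values under other settings kept direction and call, 157 lost the call and 65 gained it. Over the 3928 genes tested, DESeq2 moved the median at 24 h by -0.02 and leaving out the filter by -0.13.

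No pairing by culture was possible because the labels carry no replicate numbers. The time tests compare libraries within strains, and the strain tests match them by labelled time. The reported late-against-early test does not match libraries by time. Few counts limit arg7 and, at 24 h, arg5, and 1 library per strain and time limits every strain difference at a single time.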
